A study of Mus musculus with 16 samples.

Results

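The genes examined here encode the nuclear subunits of the mitochondrial respiratory chain and of ATP synthase. They were taken from the table of transcripts of the mouse tibialis anterior, a muscle of the lower hindlimb, by their symbols: Nduf genes of the a, b, c, s and v series, Sdha to Sdhd, the Uqcr genes of complex III, the Cox4 to Cox8 genes and the Atp5 genes, without pseudogenes. The rule found 83 of the 47643 genes in the table. Of these, 35 encode subunits of complex I, 4 of complex II, 8 of complex III, 18 of complex IV and 15 of complex V. Ndufa4 is counted with complex IV, of which its protein is known to be a subunit. The symbols of 3 more genes match the rule, but their products are not counted as subunits and were kept apart: Cox7a2l, an assembly factor of respiratory supercomplexes, Atp5s and Atp5sl.

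RNA was sequenced from muscles of male C57BL6/J mice aged 6 or 24 months, with 4 WT and 4 UBR4 mKO mice at each age. All mice carried floxed Ubr4 alleles and received tamoxifen in early adulthood, and the UBR4 mKO mice also carried a tamoxifen-inducible Cre under the ACTA1 promoter, which is active in skeletal myofibers and leaves the other cells of the muscle with Ubr4. UBR4 is a ubiquitin ligase, and the study asked how its loss changes muscle in young and old animals. Levels are in TPM, for which the reads of a gene are divided by its length and each sample is brought to a sum of 1000000. They keep no trace of depth, so the reads behind a level are unknown, and a gene can move because other transcripts take up more or less of the sum. Values written with ± are means and SD over the 4 samples of a group.

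The respiratory chain passes electrons from NADH (complex I) and succinate (complex II) through complex III to oxygen at complex IV, and complex V, the ATP synthase, uses the proton gradient that complexes I, III and IV build. Complex II is encoded entirely in the nucleus, whereas the other complexes also hold subunits of the mitochondrial genome. In mammals, several subunits of complex IV exist as a pair of isoforms encoded by separate genes, one found in heart and skeletal muscle (Cox6a2, Cox7a1, Cox8b) and one found in most tissues (Cox6a1, Cox7a2, Cox8a), and the membrane rotor ring of ATP synthase is built from one protein encoded by Atp5g1, Atp5g2 and Atp5g3.

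Comparisons were made on log2(TPM + 0.1). Genes with a mean of at least 1 TPM over the 16 samples were fitted with limma, a linear model with a variance estimate shared across genes, and a gene is called changed where its Benjamini-Hochberg adjusted p-value over all 10628 genes tested is under 0.05. Of the 83 genes, 80 passed this filter. The other 3, all isoforms of complex IV known from testis, had means under 1 TPM, namely Cox6b2 (at most 0.757 TPM in any sample), Cox7b2 (at most 0.410 TPM) and Cox8c (listed at 0 in all 16 samples). Ubr4, the targeted gene, was at 11.1, 15.7, 13.2 and 9.09 TPM in the WT muscles and 4.98, 4.91, 5.51 and 6.54 TPM in the UBR4 mKO muscles at 6 months, a change of -1.12 on the log2 scale (SE 0.26, adjusted p = 0.00365 in limma). At 24 months it was at 17.2, 17.0, 17.8 and 21.1 TPM in WT and 10.1, 14.6, 4.28 and 7.63 TPM in UBR4 mKO muscles, where the groups did not overlap but the adjusted p was 0.0598 in limma. In whole muscle, a transcript retained in the UBR4 mKO samples can come from cells without Cre or from myofibers that kept the gene, which cannot be told apart.

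Some samples and transcripts stand apart in ways that touch every comparison below. The share of TPM in transcripts of the mitochondrial genome was 56.3% ± 3.01 in 6-month-old WT muscles, against 47.9% ± 1.71 in 6-month-old UBR4 mKO, 50.1% ± 1.85 in 24-month-old WT and 48.6% ± 1.57 in 24-month-old UBR4 mKO muscles. With every sample scaled to the same sum, the median gene moved with this share, by 0.33 on the log2 scale from WT to UBR4 mKO at 6 months and by 0.26 from 6 to 24 months in WT. A second scaling, by the median ratio of each sample to the average sample over genes above 0 in every sample, takes out the shift of the median gene. For each comparison its count is given beside that of TPM, and for some named genes its value. In the 24-month-old UBR4 mKO group, replicate 3 had 74 of the 80 genes above the mean of its other 3 replicates, by a median of 0.31 on the log2 scale, and its values leaned to short transcripts (Spearman's rho of -0.46 between this difference and transcript length over 79 genes). Replicate 1 of that group stood apart the other way, with 3 of the 80 above the mean of the others, a median of -0.18 and a rho of 0.51, and replicate 1 of the 6-month-old UBR4 mKO group had 7 of the 80 above, with a median of -0.090. The median coefficient of variation of the 80 genes was 12.3% in the 24-month-old UBR4 mKO group, against 3.71% to 4.17% in the other groups.

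The subunit genes spanned a wide range of levels. Over the 16 samples, the median of the 77 tested subunits was 382 TPM, and the medians by complex were 286 TPM for complex I (35 genes), 404 TPM for complex II (4 genes), 589 TPM for complex III (8 genes), 670.3 TPM for complex IV (15 genes) and 462 TPM for complex V (15 genes). Complex IV held both the highest and the lowest of all, the muscle isoform Cox6a2 at a mean of 2046 TPM and Cox4i2, an isoform known from lung, at 4.99 TPM. The highest and lowest in complex I were Ndufb9 (1093 TPM) and Ndufb2 (47.4 TPM), both accessory subunits. In complex II they were Sdha, the flavoprotein that oxidises succinate (476 TPM), and Sdhc, a membrane anchor (149 TPM). In complex III they were Uqcr10 (875 TPM) and the core subunit Uqcrc1 (334 TPM), which lay within a factor of 2.62. In complex V they were Atp5l (1831 TPM), a subunit of the membrane sector, and Atp5g2 (228 TPM).

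**Figure D1:**
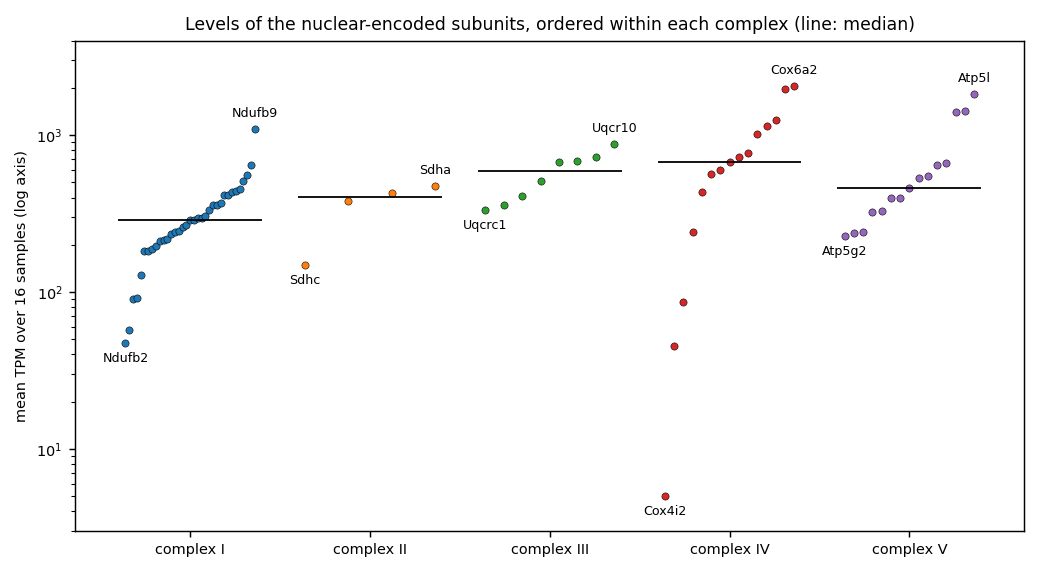
Mean TPM over 16 samples (log axis) of the 77 tested nuclear subunits, 1 point per gene, ordered within each complex, with the median of the complex as a line and the highest and lowest gene named. Complex IV spans from Cox4i2 at 4.99 TPM to Cox6a2 at 2046 TPM.

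In each isoform pair, the muscle isoform was the more abundant. At 6 months in WT, Cox6a2 was at 2098 ± 112 TPM against 39.6 ± 4.06 TPM for Cox6a1, Cox8b at 1935 ± 89.9 TPM against 71.5 ± 6.66 TPM for Cox8a, and Cox7a1 at 1086 ± 46.7 TPM against 411 ± 14.3 TPM for Cox7a2. The upstream sequences of the Cox7a and Cox8 pairs are shown because the results on isoforms turn on these genes. They are the 250 bases before the RefSeq start on GRCm38.p6, read 5′ to 3′ on the strand of the gene, with CpG dinucleotides in capitals. The RefSeq starts of Cox7a1 and Cox7a2 lie slightly inside the GENCODE models used for positions below. The windows are chr7:30183921-30184170 on the plus strand, chr9:79759854-79760103 on the minus strand, chr7:140900447-140900696 on the minus strand and chr19:7217617-7217866 on the minus strand.
Cox7a1: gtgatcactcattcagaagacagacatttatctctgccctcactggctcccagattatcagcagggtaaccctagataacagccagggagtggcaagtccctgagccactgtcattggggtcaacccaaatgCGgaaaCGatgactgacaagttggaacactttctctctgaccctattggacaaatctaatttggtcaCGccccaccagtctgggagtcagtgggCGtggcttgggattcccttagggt
Cox7a2: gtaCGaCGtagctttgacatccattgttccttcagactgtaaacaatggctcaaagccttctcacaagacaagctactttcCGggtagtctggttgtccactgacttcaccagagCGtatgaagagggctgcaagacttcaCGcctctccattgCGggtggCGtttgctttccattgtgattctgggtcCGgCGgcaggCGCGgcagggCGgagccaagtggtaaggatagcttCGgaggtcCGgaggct
Cox8b: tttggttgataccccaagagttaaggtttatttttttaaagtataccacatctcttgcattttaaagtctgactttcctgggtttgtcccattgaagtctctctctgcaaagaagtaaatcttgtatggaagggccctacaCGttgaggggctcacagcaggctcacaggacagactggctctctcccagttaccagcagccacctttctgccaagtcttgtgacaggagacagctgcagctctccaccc
Cox8a: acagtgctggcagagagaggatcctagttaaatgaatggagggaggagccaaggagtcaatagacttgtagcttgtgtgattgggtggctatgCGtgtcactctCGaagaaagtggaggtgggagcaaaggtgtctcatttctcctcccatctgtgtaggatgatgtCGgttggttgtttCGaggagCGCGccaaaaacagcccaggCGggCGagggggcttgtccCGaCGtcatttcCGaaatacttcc
The windows of the muscle isoforms held 4 (Cox7a1) and 1 (Cox8b) CpG dinucleotides, and those of their broadly expressed partners held 14 (Cox7a2) and 11 (Cox8a). The median was 14 over the promoters of the 66 subunit genes that matched the table by symbol and 6 over all 32851 promoters of the same length.

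At 6 months, subunit genes of all 5 complexes were higher in UBR4 mKO than in WT muscles on the TPM scale, and none was called higher with median-of-ratios scaling. Of the 80 genes, 25 rose and 0 fell by TPM, against 43.7% of all genes tested that rose and 1.15% that fell, so the share of risers was below the background. The median log2 fold change of the 80 genes was 0.12, and 74 of them lay below the median gene (0.33). The UBR4 mKO samples were all above the WT samples for 37 of the 80 genes (background 39%). With median-of-ratios scaling, 0 rose and 5 fell (background 6.66% and 10.2%), with a median of -0.23, and the UBR4 mKO samples were all below the WT samples for 19 genes (background 16.3%). When the mitochondrial genes were removed and TPM was summed again to 1000000, 0 rose and 16 fell (background 9.07% and 5.87%). The direction for the set therefore depends on the scaling. The 5 that fell with median-of-ratios scaling were Cox6a2 (-0.49), Atp5o (-0.42), Ndufa5 (-0.38), Ndufv2 (-0.34) and Atp5a1 (-0.23). Without WT replicate 4 at 6 months, 16 of the 80 genes rose on the TPM scale.

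**Figure D2:**
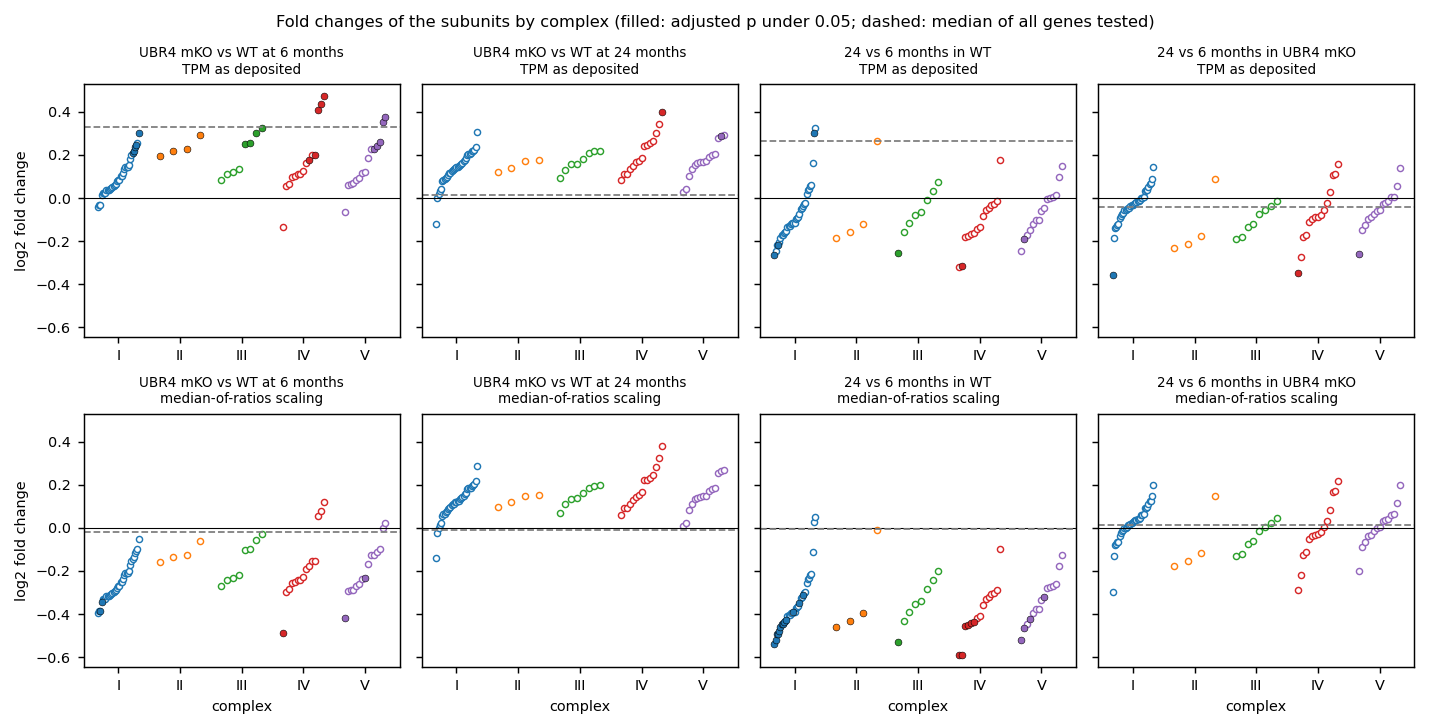
Log2 fold changes of the subunit genes (vertical axis) by complex (horizontal axis) in 4 comparisons, from TPM as deposited (top) and after median-of-ratios scaling (bottom). Filled points passed an adjusted p of 0.05, and the dashed line is the median of all genes tested, which lies at 0.33 for UBR4 mKO vs WT at 6 months on the TPM scale and at -0.018 after scaling.

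In complex I, the entry point for NADH, 5 of 35 genes rose on the TPM scale, and the median was 0.082. The largest rise was that of Ndufb3 (chr1:58586384-58595964, plus strand), an accessory subunit of the membrane arm, at 243, 285, 269 and 237 TPM in WT and 297, 304, 337 and 336 TPM in UBR4 mKO muscles. No sample of one group fell within the other, and the fit gave a change of 0.30 on the log2 scale (SE 0.085, adjusted p = 0.0111 in limma). Ndufv1, a core subunit that binds NADH, was at 272 ± 21.8 TPM in WT and 299.5 ± 12.4 TPM in UBR4 mKO muscles, and was not called. Ndufs1, a core subunit that carries iron-sulfur clusters, was at 166 ± 26.8 TPM and 189 ± 12.9 TPM, and was not called either. Ndufa1, Ndufa10 and Ndufs4 also rose, with log2 fold changes from 0.21 to 0.24. The count of 5 was 2 without WT replicate 4 or UBR4 mKO replicate 3 at 6 months, 3 without WT replicate 3 or UBR4 mKO replicate 2 at 6 months, and 8 without UBR4 mKO replicate 3 at 24 months. On the median-of-ratios scale Ndufb3 turned to -0.052.

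In complex II, 4 of 4 genes rose, with a median of 0.22. Sdha (chr13:74322254-74350280, minus strand) was at 419.7, 471, 378 and 345 TPM in WT and 464, 489.8, 500.0 and 510.2 TPM in UBR4 mKO muscles. The lowest UBR4 mKO sample was under the highest WT sample, and the change of 0.29 on the log2 scale (SE 0.10, adjusted p = 0.0329 in limma) was the largest of the complex. Sdhb, the iron-sulfur subunit, rose by 0.20, and the membrane anchors Sdhc and Sdhd by 0.22 and 0.23 on the log2 scale. All 4 fold changes were below that of the median gene on the TPM scale, and all turned negative with median-of-ratios scaling, from -0.16 for Sdhb to -0.061 for Sdha. The count of calls in complex II depended on single samples. It was 1 (Sdhd) without WT replicate 4 and 1 (Sdhd) without UBR4 mKO replicate 4 at 6 months, and 2 without WT replicate 1 or without UBR4 mKO replicate 2 or 3. No difference between complexes was tested.

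In complex III, 4 of 8 genes rose, with a median of 0.19. Uqcrfs1 (chr13:30540308-30545362, minus strand), the Rieske iron-sulfur protein, was at 605, 669.7, 590.5 and 569 TPM in WT and 696, 765, 823 and 769 TPM in UBR4 mKO muscles. Every UBR4 mKO sample was above every WT sample, a change of 0.33 on the log2 scale (SE 0.069, adjusted p = 0.00231 in limma). The core subunits Uqcrc1 (0.25) and Uqcrc2 (0.30) and the small subunit Uqcrh (0.26) were the other 3. With median-of-ratios scaling all 4 were below 0, from -0.10 for Uqcrc1 to -0.027 for Uqcrfs1. Uqcr10, the most abundant transcript of the complex, was at 856 ± 27.6 TPM in WT and 926 ± 38.1 TPM in UBR4 mKO muscles and was not called.

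Complex IV held the largest rise of any subunit. Of its 15 tested genes 5 rose (median 0.13), namely Cox8a, Cox7a1, Cox6a1, Cox7c and Cox7b. The count was 3 without WT replicate 1, 3 or 4 or without UBR4 mKO replicate 2, 3 or 4 at 6 months, and 8 without UBR4 mKO replicate 3 at 24 months. Cox8a (chr19:7215153-7217616, minus strand), the broadly expressed isoform, was at 66.1, 66.1, 79.7 and 74.3 TPM in WT and 89.1, 103, 104 and 101 TPM in UBR4 mKO muscles. The 4 UBR4 mKO samples were again the higher ones, with a change of 0.47 on the log2 scale (SE 0.11, adjusted p = 0.00339 in limma). Cox7a1 (chr7:30184144-30186078, plus strand), the muscle isoform, was at 1039, 1053, 1120.1 and 1132 TPM in WT and 1491, 1440.4, 1526 and 1412 TPM in UBR4 mKO muscles, a change of 0.43 on the log2 scale (SE 0.079, adjusted p = 0.000925 in limma). All 4 UBR4 mKO samples were thus above the highest WT sample. Cox6a1 (chr5:115345642-115348981, minus strand), the broadly expressed partner of Cox6a2, rose as well, from 39.6 ± 4.06 TPM to 52.4 ± 3.12 TPM, a change of 0.41 on the log2 scale (SE 0.12, adjusted p = 0.0145 in limma). Cox8a, Cox7a1 and Cox6a1 stayed above 0 with median-of-ratios scaling (0.12, 0.080 and 0.054), but none of the 3 was then called. Cox6a2 was at 2008, 2014, 2126 and 2245 TPM in WT and 1762, 1929.9, 1855 and 2119.8 TPM in UBR4 mKO muscles, overlapping and not called on the TPM scale. Of the other subunits with a named isoform or role, Cox4i1 was at 739.9 ± 5.45 TPM in WT and 801 ± 27.5 TPM in UBR4 mKO muscles, Cox5a at 1200.3 ± 54.4 TPM and 1381 ± 111 TPM, and Ndufa4 at 687 ± 29.1 TPM and 742 ± 14.9 TPM, and none of them was called.

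In complex V, 5 of 15 genes rose (median 0.12), namely Atp5b, Atp5g3, Atp5h, Atp5f1 and Atp5d. Atp5b (chr10:128083273-128090391, plus strand), the catalytic beta subunit, was at 1235, 1364, 1159 and 1102 TPM in WT and 1469, 1557, 1625 and 1639 TPM in UBR4 mKO muscles. All WT samples lay below the lowest UBR4 mKO sample, with a change of 0.38 on the log2 scale (SE 0.072, adjusted p = 0.00127 in limma). Atp5a1, the alpha subunit that alternates with beta in the same ring, was at 1317 ± 112 TPM in WT and 1429 ± 73.0 TPM in UBR4 mKO muscles and was not called. Atp5g3 (chr2:73908447-73911326, minus strand), one of the 3 genes of the rotor ring, was at 508, 559, 515 and 501 TPM in WT and 621, 674, 698 and 667 TPM in UBR4 mKO muscles, again without overlap, with a change of 0.35 on the log2 scale (SE 0.063, adjusted p = 0.000792 in limma). With median-of-ratios scaling the value was -0.0013 for Atp5g3 and 0.022 for Atp5b, and neither was called. Its partners Atp5g1 (241 ± 18.2 TPM and 252 ± 15.5 TPM) and Atp5g2 (217 ± 4.45 TPM and 232 ± 9.67 TPM) were not called. Atpif1, the inhibitor of ATP synthase, which is no subunit and outside the 83 genes, was at 14.1, 14.7, 15.8 and 15.1 TPM in WT and 19.5, 22.5, 19.1 and 20.4 TPM in UBR4 mKO muscles, a change of 0.45 on the log2 scale (SE 0.10, adjusted p = 0.00321 in limma), and with median-of-ratios scaling 0.094 and not called. Among the 3 genes kept apart, Atp5s (0.50) and Cox7a2l (0.29) rose, and Atp5sl was at 20.6 ± 2.51 TPM and 24.2 ± 2.17 TPM.

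**Figure D3:**
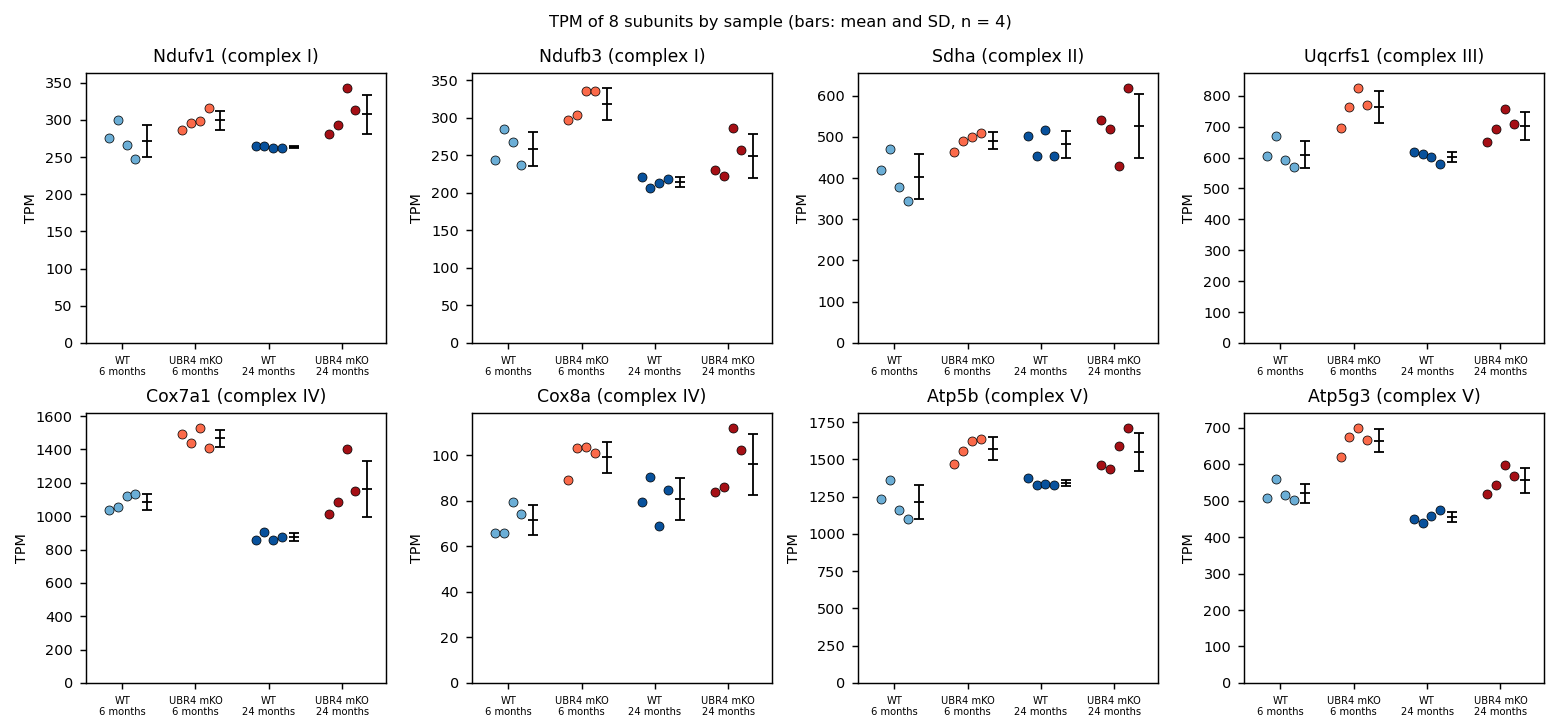
TPM of 8 subunits in each of the 16 samples by group, with the mean and SD of 4 samples as bars. For Cox7a1 the 6-month-old UBR4 mKO samples (1412 to 1526 TPM) lie above the 6-month-old WT samples (1039 to 1132 TPM), and the 24-month-old WT samples (855 to 904 TPM) lie below both.

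At 24 months, 2 subunit genes were higher in UBR4 mKO than in WT muscles and none was lower. The background was 0.433% of all genes tested for rises and 0.198% for falls. The 2 were the muscle isoform Cox7a1, at 855, 904, 859.8 and 876 TPM in WT and 1010.4, 1086, 1401 and 1152 TPM in UBR4 mKO muscles, and Atp5g3, at 451, 439, 459 and 474 TPM in WT and 518, 542, 598 and 567 TPM in UBR4 mKO muscles. Neither gene overlapped between the groups. The values were a change of 0.40 on the log2 scale (SE 0.079, adjusted p = 0.0324 in limma) for Cox7a1 and a change of 0.29 on the log2 scale (SE 0.063, adjusted p = 0.0491 in limma) for Atp5g3. Both adjusted p-values were near the threshold, and over the 16 fits that each left out 1 sample, Cox7a1 passed in 11 and Atp5g3 in 2. With median-of-ratios scaling neither passed, at 0.38 and 0.26, nor did any other of the 80 genes (background 0.913% in either direction), and without the mitochondrial genes 1 was higher (background 0.311%). In the fit without replicate 3 of the 24-month-old UBR4 mKO group, 1 of the 80 genes was called, with Cox7a1 at 0.31 (adjusted p in limma = 0.0249) and Atp5g3 at 0.25 (adjusted p in limma = 0.0762).

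Over all 80 genes, 78 had a log2 fold change above 0 at 24 months (77 with median-of-ratios scaling), with a median of 0.16, and 2 lay below the median gene (0.013). By complex, the medians ran from 0.14 in complex I to 0.19 in complex IV. The UBR4 mKO samples were all above the WT samples for 26 genes on the TPM scale (background 4.29%) and for 2 with median-of-ratios scaling (background 2.95%). At an unadjusted p under 0.05, 37 of the 80 genes were higher and 0 lower, against 745 and 331 of all 10628 genes. With median-of-ratios scaling these numbers were 4 and 0 of the 80, against 663 and 762 of all genes. Without replicate 3 the median over the 80 genes was 0.088. The values of that sample go both ways, since the long transcript Ndufs1 was at 154 TPM there, against 196 to 204 TPM in the other 3, whereas Cox8b was at 2794 TPM, against 1894 to 2061 TPM. Sdha (482 ± 33.7 TPM in WT and 526 ± 77.5 TPM in UBR4 mKO muscles) and Atp5b (1341 ± 21.1 TPM and 1549.5 ± 125 TPM) were among the genes not called at this age.

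From 6 to 24 months in WT muscles, 5 of the 80 genes fell and 1 rose on the TPM scale, whereas 1.07% of all genes tested fell and 24% rose. The median of the 80 genes was -0.095, against 0.26 for the median gene, and 77 of the 80 lay below the median gene. All 24-month-old samples were below all 6-month-old ones for 38 genes (background 1.83%). With median-of-ratios scaling 28 genes fell and 0 rose (background 5.33% and 4.44%), with a median of -0.37, and the groups were apart for 59 genes (background 12%). On that scale the falls were 13 of 35 in complex I, 3 of 4 in complex II, 1 of 8 in complex III, 6 of 15 in complex IV and 4 of 15 in complex V, with Atp5sl the remaining one. Without the mitochondrial genes, 56 genes fell and 0 rose (background 4.08% and 5.82%), with a median of -0.29. The direction for the set was thus the same under the 3 scalings, and the number called was not.

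The 5 genes that fell on the TPM scale came from 4 complexes. Cox7a1 was at 1039, 1053, 1120.1 and 1132 TPM at 6 months and 855, 904, 859.8 and 876 TPM at 24 months in WT, the largest fall, with a change of -0.31 on the log2 scale (SE 0.079, adjusted p = 0.0124 in limma). Ndufb3 was at 243, 285, 269 and 237 TPM and then 221, 206, 214 and 219 TPM, a change of -0.26 on the log2 scale (SE 0.085, adjusted p = 0.035 in limma). Neither gene overlapped between the ages. Uqcrq, a small subunit of complex III, was at 355, 384, 374 and 381 TPM and then 315, 327, 285 and 325 TPM, a change of -0.25 on the log2 scale (SE 0.086, adjusted p = 0.0407 in limma). Atp5g3 was at 508, 559, 515 and 501 TPM and then 451, 439, 459 and 474 TPM, a change of -0.19 on the log2 scale (SE 0.063, adjusted p = 0.0372 in limma), and Ndufb10, an accessory subunit of complex I, fell too (-0.22). In all 5 the older samples lay below the younger ones. With median-of-ratios scaling all 5 were called too, with larger falls. These were -0.59 for Cox7a1, -0.54 for Ndufb3, -0.53 for Uqcrq, -0.47 for Atp5g3 and -0.49 for Ndufb10. The count of falls hangs on single samples: it was 2 without WT replicate 1 at 6 months, 1 without replicate 3, 2 without replicate 4, 1 without any 1 of the 4 WT replicates at 24 months, 2 and 3 without UBR4 mKO replicates 2 and 3 at 6 months, and 22 without UBR4 mKO replicate 3 at 24 months, a sample that enters this comparison through the shared estimate of the spread.

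From 6 to 24 months in UBR4 mKO muscles, 3 genes fell and 0 rose, against 3.85% and 2.45% of all genes tested. The 3 were Ndufb3, Cox7a1 and Atp5g3, which had also fallen with age in WT. Ndufb3 was at 297, 304, 337 and 336 TPM at 6 months and 230.1, 222, 287 and 258 TPM at 24 months, a change of -0.36 on the log2 scale (SE 0.085, adjusted p = 0.0177 in limma). Cox7a1 went from 1467 ± 51.2 TPM to 1162 ± 169 TPM, a change of -0.35 on the log2 scale (SE 0.079, adjusted p = 0.0137 in limma), and Atp5g3 from 665 ± 32.5 TPM to 556 ± 34.3 TPM, a change of -0.26 on the log2 scale (SE 0.063, adjusted p = 0.0206 in limma). In all 3 the older samples were below the younger ones. With median-of-ratios scaling the changes were -0.30 for Ndufb3, -0.29 for Cox7a1 and -0.20 for Atp5g3, and none of them was called. The median over the 80 genes was -0.055, close to that of the median gene (-0.043), the older samples were below the younger ones for 6 genes (background 8.49%), 0 fell with median-of-ratios scaling (background 5.3%) and 4 fell without the mitochondrial genes (background 4.76%). Without UBR4 mKO replicate 3 at 6 months 0 of the 80 fell, without replicate 2 at 24 months 1 did, and without replicate 3 at 24 months 15 did.

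Whether the effect of UBR4 loss differed between the ages was tested as the interaction of genotype and age. None of the 80 genes passed, whereas 4.7% of all genes tested did, with the effect at 24 months below that at 6 months in 487 of these 500 genes. At an unadjusted p under 0.05, 1 of the 80 had a lower and 0 a higher effect at 24 months in limma, against 3200 and 98 of all 10628 genes, whereas 0 had a lower and 37 a higher effect with median-of-ratios scaling (792 and 1190 of all genes), and 0 and 50 without the mitochondrial genes (1096 and 731 of all genes). The median interaction of the 80 genes was 0.044, against -0.31 for the median gene, and 1 of the 80 lay below the median gene. With median-of-ratios scaling it was 0.38, with 0 called (background 1.99%), and after removal of the mitochondrial genes from the sum it was 0.26, with 5 called higher (background 0.782%), namely Ndufa5, Ndufs7, Ndufa4, Atp5l and Ndufv1. Without UBR4 mKO replicate 3 at 24 months the median was -0.049. For Cox7a1 the effects at 6 and 24 months were 0.43 and 0.40 on the TPM scale, with an interaction of -0.033 (standard error 0.11, limma adjusted p = 0.836). The interaction of Cox7a1 was 0.30 with median-of-ratios scaling (limma adjusted p = 0.435) and 0.18 without the mitochondrial genes (limma adjusted p = 0.452). Its sign thus depends on the scaling, and it was called under none of them.

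The share of one isoform in the summed TPM of its partners is a ratio within a sample and does not depend on the scaling. Shares were tested over the 4 against 4 samples by exact permutation (two-sided, with 0.0286 as the smallest p it can give) and adjusted over 24 tests (6 shares in 4 comparisons). No share passed after this adjustment, since the smallest adjusted p was 0.0571, and 12 of the 24 tests reached it. The shares below are therefore given by their values and by whether the groups overlap.

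The share of Cox7a2, the broadly expressed isoform, in Cox7a1 and Cox7a2 was apart in all 4 comparisons. It was 27.7, 27.5, 27.3 and 27.3% in WT and 23.4, 24.3, 23.9 and 23.8% in UBR4 mKO muscles at 6 months, and 32.8, 29.9, 32.8 and 31.7% and 27.7, 28.9, 27.6 and 28.4% at 24 months. At both ages every UBR4 mKO sample was below every WT sample, by 3.59 percentage points of the means at 6 months and 3.67 at 24 months (p = 0.0286 for each, exact permutation test, adjusted p = 0.0571). In both genotypes every 24-month-old sample was above every 6-month-old sample, by 4.37 points in WT and 4.28 points in UBR4 mKO muscles. The genotype effect at 24 months minus that at 6 months was -0.0881 points (p = 0.974, exact permutation of ages within genotype over 4900 assignments). Without replicate 3 of the 24-month-old UBR4 mKO group the difference at 24 months was 3.49 points.

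The share of Cox6a1 in Cox6a1 and Cox6a2 was 1.78, 1.94, 2.08 and 1.62% in WT and 2.64, 2.72, 2.86 and 2.45% in UBR4 mKO muscles at 6 months, and 1.72, 2.14, 1.70 and 1.99% and 2.26, 2.20, 2.33 and 2.19% at 24 months. The UBR4 mKO samples were above the WT samples at both ages, by 0.814 points at 6 months and 0.358 points at 24 months (p = 0.0286 for each, exact permutation test, adjusted p = 0.0571). The share was lower at 24 than at 6 months in UBR4 mKO muscles by 0.425 points without overlap (p = 0.0286, exact permutation test, adjusted p = 0.0571), and differed by 0.0316 points in WT, where the ages overlapped. Without replicate 3 of the 24-month-old UBR4 mKO group the difference between genotypes at 24 months was 0.329 points. The effect at 24 months minus that at 6 months was -0.456 points (p = 0.0416, permutation of ages within genotype, adjusted over 6 shares p = 0.125).

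The share of Cox8a in Cox8a and Cox8b was 3.35, 3.28, 4.16 and 3.49% in WT and 4.19, 4.89, 4.78 and 4.97% in UBR4 mKO muscles at 6 months, and 4.38, 4.64, 4.21 and 4.26% and 4.23, 4.03, 3.85 and 4.74% at 24 months. The UBR4 mKO samples were above the WT samples at 6 months by 1.14 points, whereas the groups overlapped at 24 months. The difference at 24 months was -0.161 points, and -0.040 points without replicate 3 of the UBR4 mKO group. The share was also higher at 24 than at 6 months in WT, by 0.803 points and without overlap, while the ages overlapped in UBR4 mKO muscles. The effect of UBR4 loss differed between the ages by -1.30 points (p = 0.00327, permutation of ages within genotype, adjusted over 6 shares p = 0.0196). It was the only one of the 6 shares for which this difference passed after adjustment. The permutation takes neither genotype to change with age, whereas this share did in WT. Its p is therefore not exact for a difference of genotype effects, and the same limit holds for the Cox7a2 and Cox6a1 shares.

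In the rotor ring of ATP synthase, the share of Atp5g3 in the 3 Atp5g genes was 53.6, 55.3, 52.5 and 51.2% in WT and 57.2, 58.2, 58.1 and 58.1% in UBR4 mKO muscles at 6 months, and 50.2, 49.2, 52.2 and 51.6% and 55.1, 52.7, 50.5 and 54.2% at 24 months. It was higher in UBR4 mKO muscles at 6 months by 4.72 points, without overlap (p = 0.0286, exact permutation test, adjusted p = 0.0571), and the groups overlapped at 24 months (2.33 points, p = 0.114, exact permutation test). This overlap comes from UBR4 mKO replicate 3, as the other 3 were above every WT sample, and the difference without it was 3.21 points. In UBR4 mKO muscles the older samples were below the younger ones by 4.77 points. The share of Atp5g1 lay between 20.9% and 26.8% over all samples, and its groups overlapped in all 4 comparisons. That of Cox4i2 in Cox4i1 and Cox4i2 stayed under 1% in every sample and was lower in 24- than in 6-month-old WT muscles, at 0.583% ± 0.0418 against 0.724% ± 0.123 (p = 0.0286, exact permutation test, adjusted p = 0.0571).

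**Figure D4:**
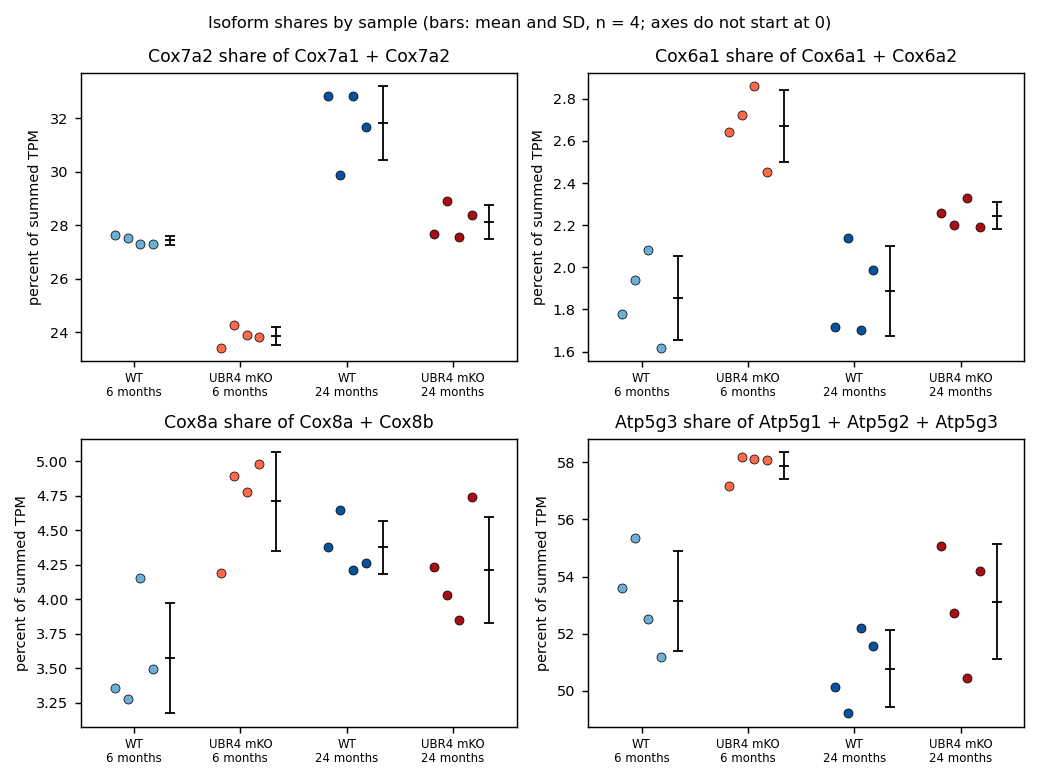
Share of 1 isoform in the summed TPM of its partners (percent) in each sample by group, with the mean and SD of 4 samples as bars, for Cox7a2, Cox6a1, Cox8a and Atp5g3. The Cox7a2 share is lowest in 6-month-old UBR4 mKO muscles (23.4 to 24.3%) and highest in 24-month-old WT muscles (29.9 to 32.8%).

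Summed levels of leukocyte markers were apart between the genotypes at both ages. They were 13.7 to 20.2 TPM in WT and 46.1 to 156 TPM in UBR4 mKO muscles at 6 months, and 26.2 to 54.4 and 65.5 to 279 TPM at 24 months, over 6 genes of which 3 (Cd68, Csf1r and Lyz2) had a mean of at least 1 TPM and were tested. Cd68, a macrophage marker, was at 0.567 ± 0.108 TPM in WT and 5.18 ± 3.73 TPM in UBR4 mKO muscles at 6 months, so that it reached the filter through the groups in which it is high, and no count is drawn from this list. The summed adipocyte markers were apart as well, at 293 to 326 and 395 to 432 TPM at 6 months and 219 to 288 and 307 to 396 TPM at 24 months. Of the 3 tested genes, Fabp4 alone was called higher at each age (background 43.7% and 0.433%), and 0 were with median-of-ratios scaling. The list median was 0.20 at 6 months, against 0.33 for the median gene, and 1.19 at 24 months. With age in UBR4 mKO muscles Fabp4 fell on the TPM scale, while the list median was 1.23. Ucp1, which defines brown adipocytes, was listed at 0 in all 16 samples, although Cidea, a gene of the same list, was at 0.721 ± 0.0365 TPM in WT and 2.24 ± 0.624 TPM in UBR4 mKO muscles at 6 months. Endothelial markers came to 71.3 to 99.1 and 115 to 123 TPM at 6 months without overlap, and to 73.9 to 88.7 and 61.3 to 92.7 TPM at 24 months. Fibroblast markers (170.2 to 289 and 229 to 416 TPM at 6 months, 172 to 367 and 244 to 458 TPM at 24 months) overlapped at both ages. The sums were also apart at 6 months for myofiber markers (64890.0 to 71222 and 82429.7 to 92479 TPM), smooth muscle and pericyte markers (172 to 212 and 226 to 238 TPM) and brown adipocyte markers (1.17 to 1.45 and 2.31 to 3.72 TPM). Slow and oxidative myofiber markers overlapped at 6 months (5055 to 6404 and 5991 to 7371 TPM). Their sums were apart at 24 months, at 4594 to 5261 TPM in WT and 5512 to 7226 TPM in UBR4 mKO muscles. Of the 7 genes, however, 0 rose and 0 fell at that age (background 0.433% and 0.198%). Their median log2 fold change was 0.056, and 0.039 with median-of-ratios scaling. This is the age at which 78 of the 80 subunit genes had a log2 fold change above 0, and the part of these fibers in that was not tested. On the TPM scale at 6 months, where 43.7% of all genes rose (6.66% with median-of-ratios scaling), the number of markers that rose was 3 of 5 (1 with median-of-ratios scaling) for fibroblasts, 3 of 5 (0 with median-of-ratios scaling) for endothelial cells, 1 of 3 (0 with median-of-ratios scaling) for adipocytes, 1 of 4 (0 with median-of-ratios scaling) for smooth muscle, 0 of 4 (0 with median-of-ratios scaling) for Schwann cells, 0 of 5 (0 with median-of-ratios scaling) for blood, 4 of 5 (0 with median-of-ratios scaling) for myofibers and 2 of 7 (2 with median-of-ratios scaling) for slow and oxidative fibers. The part of these cells in the isoform shares, of which those of Cox7a2 and Cox6a1 were also apart at both ages, was not tested, and fewer cells of a type and less RNA per cell cannot be told apart in whole muscle.

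Summed over all 83 genes, the subunit transcripts came to 36667, 38113, 36888 and 36990.5 TPM in WT and 39279.7, 41123, 42047 and 41384 TPM in UBR4 mKO muscles at 6 months. At 24 months the sums were 35683, 35242, 34507 and 35742 TPM in WT and 36187, 38939, 46166 and 38877 TPM in UBR4 mKO muscles. The UBR4 mKO samples were above the WT samples at both ages, and the highest sum was that of replicate 3 of the 24-month-old UBR4 mKO group. The means differed by 4749 TPM at that age, and by 2708 TPM without it. Of the TPM outside the mitochondrial genes, the same genes took up 8.53% ± 0.504 in WT and 7.87% ± 0.151 in UBR4 mKO muscles at 6 months, and 7.08% ± 0.178 and 7.79% ± 0.604 at 24 months. On this base the order of the genotypes at 6 months is turned round, with every UBR4 mKO sample (7.67 to 8.03%) below every WT sample (8.04 to 9.19%), whereas at 24 months the UBR4 mKO range (7.15 to 8.60%) overlapped that of WT (6.84 to 7.27%).

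Of the 13 subunits encoded by the mitochondrial genome, on the TPM scale at 6 months, 9 fell and 0 rose in UBR4 mKO muscles (background 1.15% and 43.7%), with a median log2 fold change of -0.23, led by mt-Nd2, a core subunit of complex I, with a change of -0.36 on the log2 scale (SE 0.060, adjusted p = 0.000462 in limma). With median-of-ratios scaling 12 fell (background 10.2%, median -0.58), a scale on which the nuclear set was below 0 too (median -0.23). The ratio of the mean TPM per mitochondrially encoded subunit to that per tested nuclear subunit, over complexes I, III, IV and V, does not depend on the scaling. It was 88.8, 81.1, 91.1 and 94.4 in WT and 74.5, 69.6, 65.7 and 65.5 in UBR4 mKO muscles at 6 months, without overlap. At 24 months it was 81.5, 85.7, 88.1 and 78.4 in WT and 80.4, 75.0, 58.5 and 74.3 in UBR4 mKO muscles, where replicate 1 of the UBR4 mKO group lay within the WT range and replicate 3 was the lowest of all samples. The mean difference was -11.4, and -6.87 without replicate 3. By complex, the ratio at 6 months was 76.2 ± 4.66 in WT and 57.5 ± 3.03 in UBR4 mKO muscles for complex I, 75.1 ± 5.49 and 59.9 ± 3.74 for complex III, 109.8 ± 5.96 and 86.5 ± 5.70 for complex IV, and 89.7 ± 6.19 and 70.4 ± 4.42 for complex V. The groups were apart in each of the 4 complexes. With age in WT, 3 of the 13 fell (background 1.07%; 5 with median-of-ratios scaling, background 5.33%), led by mt-Co1, the catalytic subunit of complex IV (-0.27), and at 24 months none was called between the genotypes in limma. Ribosomal and transfer RNAs of the mitochondrial genome are listed at 0 in every sample and do not enter these values.

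**Figure D5:**
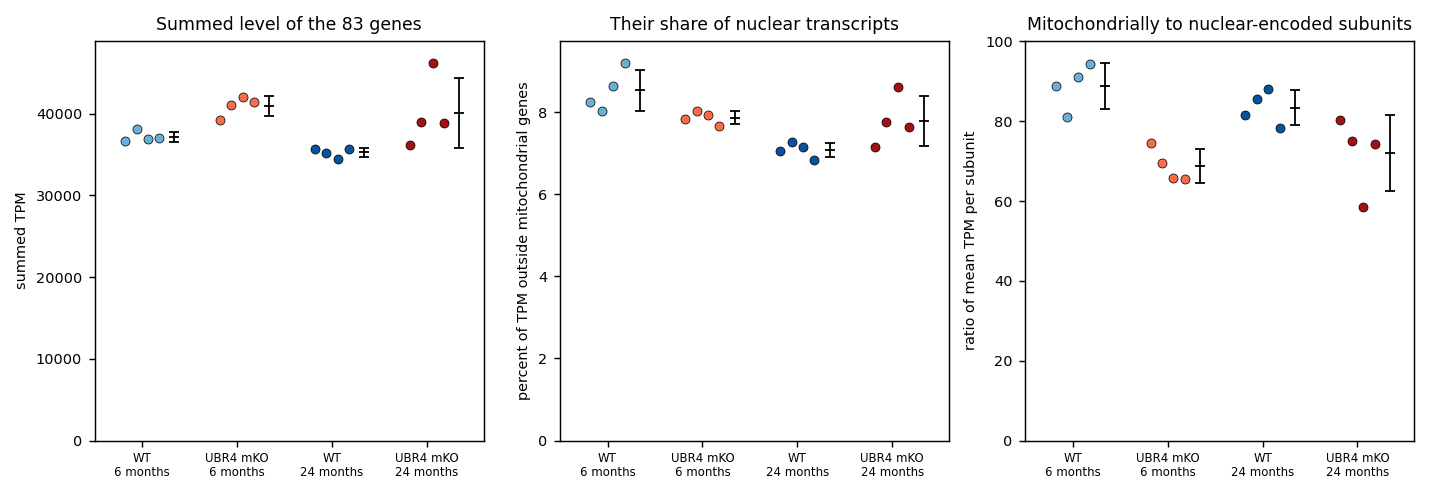
Summed TPM of the 83 genes (left), their percent of TPM outside the mitochondrial genes (middle) and the ratio of mean TPM per mitochondrially to nuclear-encoded subunit (right) in each sample by group, with the mean and SD of 4 samples as bars. The 6-month-old UBR4 mKO samples are above WT on the left, below WT in the middle and below WT on the right (65.5 to 74.5 against 81.1 to 94.4).

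Other genes of mitochondrial energy metabolism were counted at 6 months against a background of 43.7% of all genes that rose on the TPM scale. Of the assembly factors of the complexes 22 of 45 rose (median 0.25), with the largest rise in Foxred1, a complex I assembly factor (0.68). Of the citrate cycle genes 9 of 14 rose (median 0.21), led by Dlst, a subunit of the 2-oxoglutarate dehydrogenase complex (0.36), and of the electron carriers and exchangers 8 of 11 rose (median 0.28), led by the mitochondrial creatine kinase Ckmt2 (0.59). Of the transcriptional regulators of mitochondria 5 of 16 rose, with Tfb1m, a methyltransferase of mitochondrial ribosomal RNA, the most (0.51), and of the glycolytic genes 7 of 11 rose, with Pgk1 the most (0.50). No gene of these 5 lists fell at 6 months, none passed in either direction between the genotypes at 24 months in limma, and all of their 6-month medians lie below the median gene (0.33). With median-of-ratios scaling, the rises at 6 months (background 6.66%) numbered 1, 0, 0, 0 and 0, and the falls (background 10.2%) 1, 1, 1, 0 and 0, in the same order. The summed TPM at 24 months was apart for the citrate cycle (3958 to 4287 in WT and 4362 to 4546 in UBR4 mKO muscles) and for the electron carriers and exchangers (6474 to 6784 and 7563 to 7931). From 6 to 24 months in WT, where 24% of all genes rose and 1.07% fell, 5 of 45 assembly factors rose and 1 fell, the latter being Sdhaf4, a complex II assembly factor (-0.35), while 1 citrate cycle gene rose, Cs, the citrate synthase (0.29), as did 5 of 11 glycolytic genes. With median-of-ratios scaling, on which 4.44% rose and 5.33% fell, none of these 5 lists held a rise, and the falls numbered 6, 3, 4, 1 and 0, in the order above.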

How the data were processed

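Tibialis anterior RNA of 16 male mice was measured, 4 in each of 4 groups. The methods and a legend give fewer replicates per group than the labels, and all samples in the labels and the table were used. The authors trimmed paired reads, filtered them by quality and length, aligned them to GRCm38 (mm10 per the labels) and deposited TPM values made with CLC Genomics Workbench. Which annotation release was used, how reads matching more than 1 gene were counted and whether strand was used are not given in the sources used here, and the methods and labels name different TruSeq kits and HiSeq instruments. TPM sum to 1000000 per sample, so depth is unknown. The subunit genes and all lists were chosen with earlier results of these data known.

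Values were fitted as log2(TPM + 0.1) for 10628 genes with limma 3.58.1 in R 4.3.3, with 4 group coefficients, a variance trend and no covariate, and Benjamini-Hochberg adjusted p-values. Fold changes on this scale understate those of low genes. Shares were compared with exact permutation tests in scipy 1.17.1. WT siblings served as controls, but no source used here pairs mice across groups by number. Within groups, correlations of log2 values between samples ranged from 0.965 to 0.993, and 0 pairs were identical.

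Named genes are a fixed set of core subunits and isoforms, the called gene with the largest rise and fall of each complex and comparison, and the highest and lowest gene of each complex. From other lists the called gene with the largest rise or fall is named. Further risers and fallers, Cd68 and the markers beside it were named after their values were seen. The result of 1 gene is not reported here, although counts include it. Positions are from GENCODE vM21 on GRCm38 (82 of 83 symbols found), and upstream sequences from RefSeq (GRCm38.p6). Transcripts of 21 genes aligned (minimap2 2.31) to another gene at 95% identity or more over at least 150 bases, and copies with a row in the table summed to at most 4.36% of the TPM of the gene. The alternatives tried were 2 pseudocounts, 2 filters, 2 scalings, 2 variance settings, fits of the compared groups alone, a replicate block, rank tests and the removal of each sample.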

Additional observations from a re-analysis of the deposited data

Results flagged for a closer look

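Over the named genes, the isoform shares, the summed level and the ratios, 184 groups of 4 samples were examined for a sample far from the others, by its gap to the nearest sample as a part of the range, and 7 had one. Chance alone flags about 1 in 20 such groups. In the 24-month-old UBR4 mKO group, replicate 3 was far from the others for Cox7a2l (214 TPM, the others 179 to 182 TPM), Sdhb (431 TPM, the others 349.8 to 363 TPM) and Ndufs1 (154 TPM, the others 196 to 204 TPM), above the others in the first 2 genes and below them in Ndufs1. In the 6-month-old UBR4 mKO group, replicate 1 was low for Ndufa4 (719.9 TPM, the others 747 to 752 TPM) and the Atp5g3 share (57.2%, the others 58.1 to 58.2%), and replicate 3 was high for Uqcrc1 (376 TPM, the others 357 to 358 TPM). In the 24-month-old WT group, replicate 4 was low for the Atp5g1 share (23.8%, the others 25.0 to 25.1%).

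The effect of UBR4 loss on 2 isoform shares differed between 6 and 24 months at an unadjusted p under 0.05 when ages were permuted within genotype. Such a p is not exact where a share changes with age in a genotype. The effect at 24 months minus that at 6 months was -1.30 percentage points for Cox8a (adjusted p = 0.0196, permutation of ages within genotype). It was -0.456 points for Cox6a1 (adjusted p = 0.125, permutation of ages within genotype), so that the latter failed the correction for 6 shares.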

How the results depend on the processing

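The direction of the 6-month result depends on the scaling. With median-of-ratios scaling 0 of the 80 genes were higher and 5 lower (median -0.23, summed TPM difference -6233), and without the mitochondrial genes 0 and 16 (median -0.13). Named risers whose sign turned were, with median-of-ratios scaling, Ndufb3 -0.052, Sdha -0.061, Sdhb -0.16, Sdhc -0.14, Sdhd -0.12, Uqcrc1 -0.10, Uqcrc2 -0.054, Uqcrfs1 -0.027, Atp5g3 -0.0013 and Cox7a2l -0.059, and without the mitochondrial genes Sdhb -0.060, Sdhc -0.037, Sdhd -0.026 and Uqcrc1 -0.0037. With array weights 53 genes rose (60.5% of all genes tested), and with Kruskal-Wallis and Dunn tests 12 did (23.1%). At 24 months the 2 rises were 0 without a filter, 0 with median-of-ratios scaling, 1 without mitochondrial genes, 0 with only the compared groups, 4 with array weights (1.61%), 0 without a variance trend and 0 with Dunn tests. With age in WT, rises and falls numbered 0 and 28 with median-of-ratios scaling (median -0.37, summed TPM difference -9610.0), 0 and 56 without mitochondrial genes (median -0.29), 2 and 12 with only the compared groups (22.4% and 1.15% of all genes), 7 and 27 with array weights (59% and 2.49%) and 0 and 0 with Dunn tests. The falls with age in WT were 1 without a filter (0.608% of all genes) and 1 without a trend (0.969%). With age in UBR4 mKO, the falls were 0 with median-of-ratios scaling, 0 with only the compared groups, 26 with array weights (7.54%) and 0 with Dunn tests. For the interaction, 5 genes were higher without mitochondrial genes (median 0.26; 0.38 with median-of-ratios scaling) and 6 lower with array weights (25.6% of all genes, median -0.068). For other shifts than those of scaling, the cause was not tested. Leaving out 1 sample at a time gave 16 to 36 rises at 6 months, 0 to 3 at 24 months, 0 to 5 rises and 1 to 22 falls with age in WT, 0 to 15 falls with age in UBR4 mKO and 0 to 1 lower interactions (median -0.049 to 0.093). The share of all genes called in these fits is not given. A shift of these counts, and of those without single samples above, therefore cannot be told from a shift of calls over all genes. The isoform shares, the ratio of mitochondrially to nuclear-encoded subunits and the summed TPM moved by less than 1 SD when 1 sample was left out. An SD is itself widened by an outlying sample, however. Without UBR4 mKO replicate 3 the 24-month differences of the sum and of the ratio were smaller, as given above. For the shares, 3 against 4 samples cannot give a permutation p under 0.0571. The number of reads, and with it the counting error of each value, is unknown.

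With a replicate block, 23 genes rose at 6 months (38.9% of all genes tested) and 1 at 24 months (0.254%). With age in WT 1 rose and 2 fell (18.1% and 0.903%), and 3 fell with age in UBR4 mKO (3.04%). For the interaction 0 passed (0.0941% higher and 2.58% lower over all genes). Same-numbered samples deviated together in 4 of 24 pairs (r over 0.1, range -0.35 to 0.181), so the numbers were not taken to pair samples, and 2 of 16 samples correlated best with their own number.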

Other observations

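The 250 bases before the RefSeq start of 66 of the 83 genes were searched on both strands for short motifs of factors known at such promoters. An ETS motif (CCGGAAG), as bound by NRF-2, was found for 12 of 66 (18.2%, against 7.83% of 27025 genes), and an NRF-1 core (GCGCATGC or GCGCACGC) for 12 of 66 (18.2%, against 5.09% of 27025 genes). The motif of estrogen-related receptors (AAGGTCA) was found for 5 of 66 (7.58%, against 4.7% of 27025 genes), that of YY1 (AAGATGGC) for 1 of 66 (1.52%, against 1.83% of 27025 genes), the E-box CAGCTG of myogenic factors for 6 of 66 (9.09%, against 14.7% of 27025 genes), TATAAA for 6 of 66 (9.09%, against 14.3% of 27025 genes) and a MEF2 motif (CTAAAAATA or CTATTTATA) for 0 of 66 (0%, against 0.995% of 27025 genes). Of the 4 windows printed, 1 held a match, the E-box in that of Cox8b. The windows of Cox6a1 and Atp5g2 held the NRF-1 core and that of Atp5g3 held the motif of estrogen-related receptors. The reverse complement of CTATTTATA contains TATAAA, so these 2 searches overlap. The ETS motif and the NRF-1 core contain CpG, and the median CpG number was 14 in these windows against 6 over all promoters. The shares were not compared at like CpG number. A match describes the letters only.

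Transcripts of the subunit genes are short, with a median of 659 bases over 79 tested genes against 2111 over all tested genes with a length. Across the 79 genes, Spearman's rho between length and log2 fold change was 0.12 for UBR4 mKO vs WT at 6 months, -0.22 at 24 months, 0.27 for age in WT and 0.076 for age in UBR4 mKO, and across all tested genes with a length it was 0.14, -0.29, 0.22 and -0.14. These are correlations across genes of the same libraries, and genes are not independent replicates.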
